A study of Mus musculus with 10 samples.

Results

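The genes described here are 4 flavin-containing monooxygenases (*Fmo1*, *Fmo2*, *Fmo4* and *Fmo5*) and 5 cytosolic sulfotransferases (*Sult1a1*, *Sult1c2*, *Sult1d1*, *Sult1e1* and *Sult3a1*), drug-metabolising enzymes that were picked by gene symbol, 9 of the 24052 symbols listed for each liver. RNA sequencing was performed on whole livers of mice labelled C57BL/6 and fed ad libitum, 5 wild-type (WT) and 5 Ndrg3 LKO, with 1 library per liver. Ndrg3 LKO mice carry an *Ndrg3* gene whose floxed exon 4 is deleted by Cre recombinase under the control of the albumin promoter, which is active in hepatocytes. The authors describe the disruption as specific to hepatocytes, and whether the exon remained in other liver cells was not examined here. The floxed line had been backcrossed to C57BL/6N, and controls were WT littermates. The methods give an age of 8 to 10 weeks for the tissues used, whereas 10 to 12 weeks is given beside the metabolome results from the same livers, and they name male mice unless otherwise mentioned, although the sample labels give neither age nor sex.

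Flavin-containing monooxygenases sit in the endoplasmic reticulum, take electrons from NADPH and add 1 oxygen atom to a nitrogen or sulfur atom of drugs, amines and thiols. Cytosolic sulfotransferases move a sulfonate group from the donor PAPS onto phenols, steroids, bile acids and other hydroxyl or amine compounds, which makes most of them more soluble and easier to excrete. In mouse liver several of these genes differ between the sexes: *Sult2a1* and *Sult3a1*, for example, are known as female-predominant.

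Libraries held 20872262 to 24747870 counts in WT and 23474693 to 30450057 in Ndrg3 LKO livers, so that 3 counts, taken as the smallest signal a library can show, corresponded to 0.0985 to 0.144 CPM (counts per 1e6 counts of the library). *Ndrg3* itself was lower in every Ndrg3 LKO liver (7.08 to 9.18 CPM against 15.95 to 21.9 CPM in WT after the TMM scaling given below, log2 fold change −1.20 ± 0.13, adjusted p = 3.68e-05), the count being over the whole gene and not over exon 4. Ndrg3 LKO replicate 5 stood apart from the other Ndrg3 LKO livers. Along the first principal component, which held 68.7% of the variance, it lay at 14.1, between the WT livers at −49.9 to −43.1 and the other 4 Ndrg3 LKO livers at 51.1 to 56.6, and its 20 most abundant genes took 26.6% of the counts, against 26.2 to 28.0% in WT and 16.3 to 17.3% in the other 4. *Ndrg3* in it (8.26 CPM) was within the range of the other 4. A heat map of other genes published from these livers covers 4 Ndrg3 LKO livers and does not name the one left out. Fold changes and counts of called genes are therefore given with and without replicate 5.

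Values below are CPM scaled by TMM, a normalization that sets most genes to no change between libraries, and fold changes are Ndrg3 LKO over WT from edgeR's quasi-likelihood test, given with their standard error and with p adjusted over all 11208 genes tested. A gene was tested if it reached 1 CPM in at least 5 livers. Of the 9 genes, 7 passed this filter, whereas *Sult1e1* and *Sult3a1* did not. *Fmo5* and *Sult1d1* fell to less than 0.5 times the WT level, and *Fmo4*, which is much less abundant, rose 2.17-fold. *Fmo1*, *Fmo2*, *Sult1a1* and *Sult1c2* did not pass the threshold of 0.05. Thus 3 of 7 tested genes were called, while 48.5% of all tested genes were called in this comparison, 25.6% higher and 23.0% lower in Ndrg3 LKO livers. The median log2 fold change was −0.43 over the 7 genes and 0.03 over all genes. Under library-size scaling, which counts a library's total only, 3 were called as well, *Fmo4* and *Sult1c2* higher and *Fmo5* lower. Without Ndrg3 LKO replicate 5, *Sult1a1* was called lower as well, which made 4 of 7, beside 55.6% of the 11446 genes then tested (28.4% higher and 27.1% lower). In none of the 7 genes were the groups fully separated when all 10 livers were compared, whereas 31.5% of all genes were (15.9% lower and 15.6% higher in Ndrg3 LKO livers); without replicate 5, *Fmo5* and *Sult1a1* were separated, beside 44.7% of all genes (22.3% lower and 22.4% higher in Ndrg3 LKO livers).

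**Figure D1:**
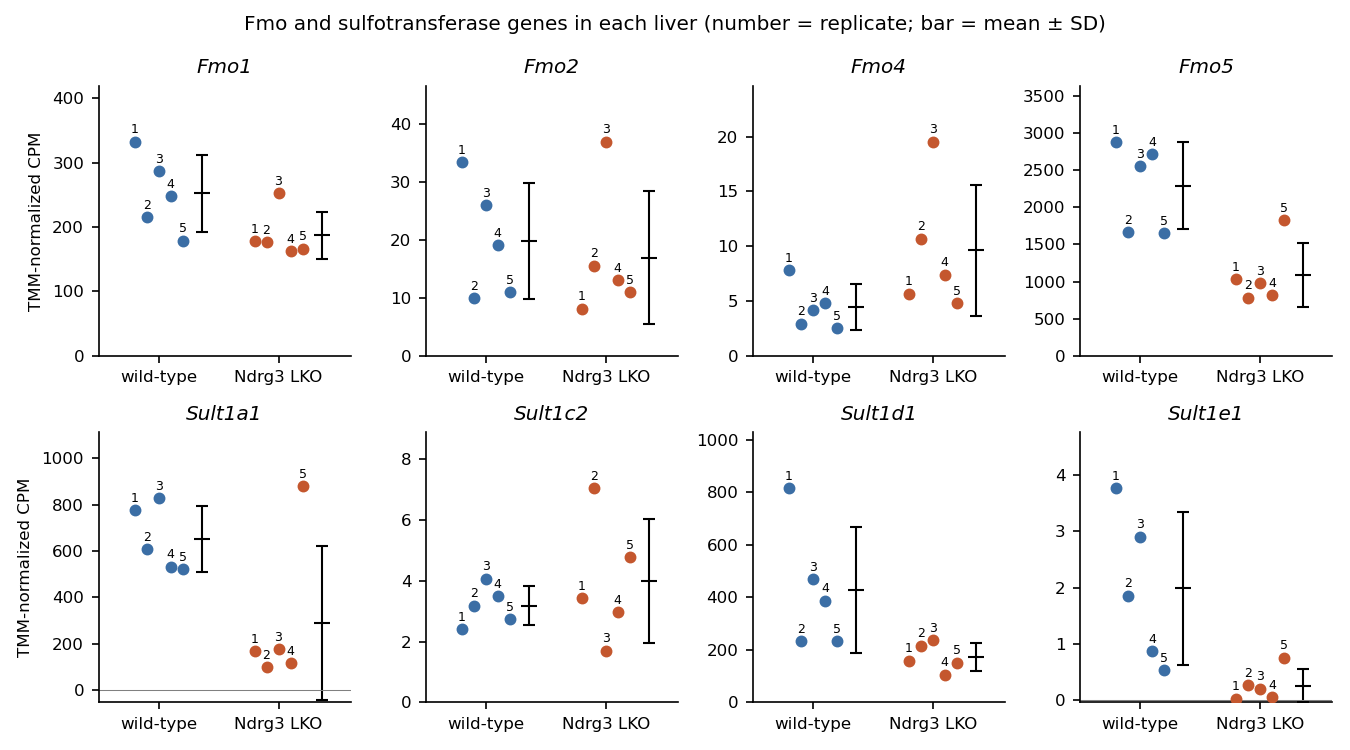
TMM-normalized CPM of 8 genes in each liver (points, numbered by replicate, blue for WT and orange for Ndrg3 LKO; bars beside them, mean ± SD of 5 livers; linear axes, with the lower end of a bar below 0 where the SD exceeds the mean). *Fmo5* and *Sult1a1* were low in Ndrg3 LKO replicates 1 to 4 but at 1824 and 880 CPM in replicate 5, and *Fmo4* was highest in replicate 3, at 19.5 CPM.

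The product of *Fmo5* is known for oxidising ketones and esters more than nitrogen or sulfur. *Fmo5*, which had the highest level per kb of exon of the 4 *Fmo* genes in every liver, lies on the plus strand of chromosome 3 (mm9, 97432727 to 97459205). Its level was 2879, 1664, 2553, 2709 and 1650 CPM in WT replicates 1 to 5. In Ndrg3 LKO replicates 1 to 5 it was 1032, 785, 976, 815 and 1824 CPM. The first 4 Ndrg3 LKO livers were thus below every WT liver, and replicate 5 was within the WT range. *Fmo5* fell by 1.08 on the log2 scale (SE 0.27, adjusted p = 0.00613), and by 1.36 (SE 0.21, adjusted p = 1.98e-04) without replicate 5. An exact permutation test of the mean log2(CPM + 1), 2-sided over every split of the livers into 5 and 5, gave p = 0.0238, where the smallest possible p is 0.00794. *Fmo5* was called lower under every one of 18 alternative analyses.

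*Fmo1*, the main hepatic monooxygenase of tertiary amines and sulfur compounds in male mice, *Fmo2* and *Fmo4* lie next to each other on the minus strand of chromosome 1 (mm9, *Fmo4* at 164724014 to 164744103, *Fmo1* at 164759692 to 164796679 and *Fmo2* at 164804448 to 164828857). *Fmo1* was at 332, 215, 287, 247 and 179 CPM in WT replicates 1 to 5, and at 178, 177, 252.01, 163 and 166 CPM in Ndrg3 LKO replicates 1 to 5. All Ndrg3 LKO livers but replicate 3 were below every WT liver, replicates 1 and 2 only just. The log2 fold change of *Fmo1* was −0.43 ± 0.19 (adjusted p = 0.0778), and −0.40 ± 0.20 (adjusted p = 0.1002) without replicate 5. The side of the threshold turned on single livers: the adjusted p was 0.0284 without Ndrg3 LKO replicate 3 (log2 fold change −0.56) and 0.0319 without WT replicate 5 (−0.55). *Fmo2*, a form best known from lung, was at 33.4, 9.93, 26.0, 19.0 and 11.0 CPM in WT replicates 1 to 5, and at 8.15, 15.6, 36.9, 13.0 and 11.0 CPM in Ndrg3 LKO replicates 1 to 5. Its 2 groups covered nearly the same range, and the log2 fold change was −0.23 ± 0.43 (adjusted p = 0.682), and −0.12 ± 0.46 (adjusted p = 0.841) without replicate 5. Scaled by library size alone, the log2 fold changes turned to 0.11 for *Fmo1* and 0.35 for *Fmo2*, in a fit where the median of all genes was 0.56.

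*Fmo4*, a monooxygenase whose substrates are less well known, moved the other way. It was at 7.81, 2.94, 4.18, 4.83 and 2.504 CPM in WT replicates 1 to 5 (42 to 139 counts). The Ndrg3 LKO livers, replicates 1 to 5, had 5.67, 10.7, 19.5, 7.42 and 4.82 CPM (102 to 758 counts). All 5 Ndrg3 LKO livers were above the WT mean of 4.45 CPM, but only replicates 2 and 3 were above every WT liver. *Fmo4* rose by 1.12 on the log2 scale (SE 0.41, adjusted p = 0.0391), and by 1.27 (SE 0.39, adjusted p = 0.0160) without replicate 5, while the exact permutation test over all 10 livers gave p = 0.0635. The call depended on which livers were included. Without Ndrg3 LKO replicate 3 the log2 fold change was 0.69 (adjusted p = 0.119), and without Ndrg3 LKO replicate 2 it was 1.08 (adjusted p = 0.0680). It was also lost when WT replicate 2, 3, 4 or 5 was left out (0.95 to 1.14, adjusted p of 0.0660 to 0.0919). Within a liver, the level of *Fmo1* per kb of exon was 29.5 to 50.9 times that of *Fmo4* in WT and 8.95 to 21.7 times in Ndrg3 LKO replicates 1 to 4, and replicate 5 was also below every WT liver. This ratio does not depend on the scaling between libraries.

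Both *Fmo6* and *Fmo9* were at or near 0. *Fmo6* had at most 2 counts in any liver. *Fmo9* had none, which allows a level of up to 0.0728 to 0.179 TMM-normalized CPM, depending on the liver, and this limit of 3 counts covers counting error only.

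*Sult1a1*, the main phenol sulfotransferase of liver, lies on the minus strand of chromosome 7 (mm9, 133816379 to 133819946) and overlaps *Ccdc101* on the opposite strand, so reads of both genes can only be told apart if strand was used in counting. It was at 775, 607, 827, 532 and 522 CPM in WT replicates 1 to 5. In Ndrg3 LKO replicates 1 to 4 it was at 169, 100.5, 177 and 116 CPM, and in replicate 5 at 880 CPM. *Sult1a1* was therefore below every WT liver in 4 Ndrg3 LKO livers and above every WT liver in the remaining one, a pattern shared by 1.31% of all tested genes. The log2 fold change was −1.18 ± 0.54 (adjusted p = 0.0889) over all livers, and −2.23 ± 0.22 (adjusted p = 9.31e-06), that is 4.68-fold lower, without replicate 5. The exact permutation test gave p = 0.0476 with and 0.0159 without replicate 5. The latter is the smallest p this test can give for 5 against 4 livers, since the groups were then fully separated.

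*Sult1d1*, *Sult1e1* and *Sult1b1* lie side by side on the minus strand of chromosome 5 (mm9, *Sult1b1* at 87942364 to 87967220, *Sult1d1* at 87983670 to 87998052 and *Sult1e1* at 88004993 to 88020636). *Sult1d1*, which in mice sulfonates dopamine and other amines and phenols, was at 815, 232, 468, 387 and 233 CPM in WT replicates 1 to 5, and at 159, 216, 237, 106 and 152 CPM in Ndrg3 LKO replicates 1 to 5. Only replicate 3 reached the WT range, just above its lower end, and replicate 5 did not stand apart. *Sult1d1* fell by 1.29 on the log2 scale (SE 0.35, adjusted p = 0.00947), or 2.45-fold, and by 1.26 (SE 0.38, adjusted p = 0.0154) without replicate 5. The exact permutation test over all livers gave p = 0.0238. The spread of *Sult1d1* within WT livers was wide (coefficient of variation 56.2%), with replicate 1 at 3.51 times the level of replicate 2. Scaled by library size alone, the log2 fold change was −0.74 and not called (adjusted p = 0.0900).

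*Sult1e1*, the estrogen sulfotransferase, was present at a few counts only. WT replicates 1 to 5 had 67, 38, 52, 19 and 9 counts (0.536 to 3.77 CPM). The counts of Ndrg3 LKO replicates 1 to 5 were 1, 11, 8, 2 and 16 (0.0288 to 0.755 CPM). Replicate 5, the highest of its group, was above WT replicate 5, and the other 4 Ndrg3 LKO livers were below every WT liver. Too few livers reached 1 CPM for the main test, and the exact permutation test gave p = 0.0159 for a difference of −1.14 in mean log2(CPM + 1). Without replicate 5 (−1.27) the p was the same, there the smallest this test can give. With no filter on low counts edgeR called it lower (log2 fold change −3.05 ± 0.73, adjusted p = 0.00680), beside 34.5% of 17746 genes called and 16.1% called lower in that fit. The third gene of this stretch, *Sult1b1*, which sulfonates thyroid hormones and phenols, was at 32.6 to 56.0 CPM in WT, at 1.46 to 2.86 CPM in Ndrg3 LKO replicates 1 to 4 and at 9.77 CPM in replicate 5. It fell by 3.66 on the log2 scale (SE 0.48, adjusted p = 1.41e-04), or 12.7-fold, and the groups were separated. Without replicate 5 it was lower by 21.0-fold (log2 fold change −4.40 ± 0.27, adjusted p = 2.49e-07). The level of *Sult1d1* per kb of exon was 6.58 to 16.5 times that of *Sult1b1* in WT livers and 17.5 to 155 times in Ndrg3 LKO livers, ranges that did not overlap.

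*Sult1c2*, on chromosome 17 (mm9, 53968962 to 53985664, minus strand), was low in both groups. Its level was 2.42 to 4.07 CPM in WT livers, and 3.43, 7.04, 1.70, 2.97 and 4.77 CPM in Ndrg3 LKO replicates 1 to 5, which spanned the WT range on both sides. The log2 fold change was 0.32 ± 0.33 (adjusted p = 0.441), 0.24 ± 0.35 (adjusted p = 0.581) without replicate 5, and 0.002 (adjusted p = 0.997) without replicate 2. Only under scaling by library size was it called (0.84, adjusted p = 0.0491), against the shift of 0.56 of all genes. *Sult3a1*, on chromosome 10 (mm9, 33583741 to 33599322, plus strand), an amine sulfotransferase found mainly in females, had 1 count in WT replicate 2 and 0 counts in the other livers. The exact permutation test gave p = 1 and edgeR with no filter an adjusted p of 0.274, and a difference was not detectable at this depth.

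The promoters of the genes that were called in either set of livers, and of *Sult1e1*, are shown because they allow the sequences at the start sites to be set beside the direction of change. They are 300 bases long, most of them before the annotated start, read 5′ to 3′ on the strand of the gene, and were taken from RefSeq on GRCm38.p6, a later build than the mm9 positions above: *Fmo4* at chr1:162812500-162812799 (minus strand), *Fmo5* at chr3:97628769-97629068 (plus), *Sult1a1* at chr7:126676369-126676668 (minus), *Sult1d1* at chr5:87568957-87569256 (minus) and *Sult1e1* at chr5:87591562-87591861 (minus). Capitals mark matches to either of 2 short motifs, on either strand.
Fmo4: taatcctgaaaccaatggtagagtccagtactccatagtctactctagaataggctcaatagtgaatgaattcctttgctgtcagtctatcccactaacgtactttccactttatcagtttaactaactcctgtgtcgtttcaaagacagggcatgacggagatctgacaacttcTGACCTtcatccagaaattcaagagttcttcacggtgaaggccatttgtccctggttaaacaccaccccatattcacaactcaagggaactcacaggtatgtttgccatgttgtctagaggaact
Fmo5: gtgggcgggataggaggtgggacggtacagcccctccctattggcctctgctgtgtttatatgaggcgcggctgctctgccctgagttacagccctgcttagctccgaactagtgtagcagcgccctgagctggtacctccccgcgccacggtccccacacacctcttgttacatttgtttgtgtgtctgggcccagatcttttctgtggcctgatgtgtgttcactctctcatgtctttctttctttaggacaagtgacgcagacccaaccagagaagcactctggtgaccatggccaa
Sult1a1: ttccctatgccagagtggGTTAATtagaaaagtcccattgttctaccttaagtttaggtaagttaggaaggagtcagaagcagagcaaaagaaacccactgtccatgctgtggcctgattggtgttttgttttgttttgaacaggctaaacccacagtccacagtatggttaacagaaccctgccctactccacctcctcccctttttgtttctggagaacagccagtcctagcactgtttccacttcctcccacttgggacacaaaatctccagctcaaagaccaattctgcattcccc
Sult1d1: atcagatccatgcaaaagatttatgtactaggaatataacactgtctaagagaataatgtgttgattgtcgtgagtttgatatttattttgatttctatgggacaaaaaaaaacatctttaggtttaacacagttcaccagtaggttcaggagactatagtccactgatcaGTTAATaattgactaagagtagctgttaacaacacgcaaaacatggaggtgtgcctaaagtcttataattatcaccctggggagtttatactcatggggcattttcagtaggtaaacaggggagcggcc
Sult1e1: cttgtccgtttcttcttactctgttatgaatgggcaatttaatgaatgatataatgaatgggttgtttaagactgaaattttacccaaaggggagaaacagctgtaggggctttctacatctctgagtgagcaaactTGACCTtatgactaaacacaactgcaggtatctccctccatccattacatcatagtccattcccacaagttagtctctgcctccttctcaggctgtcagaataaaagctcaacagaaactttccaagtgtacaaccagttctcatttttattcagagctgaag
The motifs searched were the nuclear receptor half-site AGGTCA, the HNF1 half-site GTTAAT, the HNF4 core CAAAGTCCA, the STAT motif TTCNNNGAA and the C/EBP motif TTGCNNAA, which match without regard to strand in 16.3%, 7.1%, 0.475%, 8.3% and 10.8% of 32851 such promoters. *Fmo4*, the gene that rose, held the nuclear receptor half-site with its first base 75 bases before the start, and *Sult1e1* held it 113 bases before. *Sult1d1* and *Sult1a1* held the HNF1 half-site 79 and 232 bases before the start. *Fmo5* held none of the 5 motifs in this window. These matches are letters in a sequence, and no binding was measured.

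The remaining sulfotransferase genes ranged from 0 counts to high levels. *Sult2a8*, listed under its older symbol 2810007J24Rik and known as a bile acid sulfotransferase of mouse liver, was at 790.1 to 937 CPM in WT livers and at 8.74 to 61.4 CPM in Ndrg3 LKO livers, with replicate 5 at 54.1 CPM. It fell by 4.72 on the log2 scale (SE 0.50, adjusted p = 3.44e-05), the largest fall among the 6 sulfotransferase genes that passed the filter, and by 4.98 (SE 0.53, adjusted p = 2.07e-05) without replicate 5. *Sult5a1* was at 16.0 to 19.6 CPM in WT livers. In Ndrg3 LKO livers it had 3, 6, 4, 119 and 57 counts (0.0864 to 3.40 CPM), with a log2 fold change of −3.82 ± 0.84 (adjusted p = 0.00342). Replicates 4 and 5 were thus above the other 3, and the log2 fold change was −4.76 (adjusted p = 0.00161) without replicate 4 and −4.26 (adjusted p = 0.00175) without replicate 5. *Gm20388* overlaps it on the opposite strand. *Sult2a7*, annotated as a pseudogene, had 14 to 39 counts in WT and 0 or 1 in Ndrg3 LKO livers. It did not pass the filter, and with no filter edgeR called it lower (log2 fold change −6.39 ± 0.63, adjusted p = 7.01e-06, exact permutation p = 0.00794), a fitted size that rests on 0 or 1 counts. *Sult2a1* to *Sult2a6*, *Sult2b1*, *Sult1c1*, *Sult4a1*, *Sult6b1* and *Gm4794* had at most 10 counts in any liver, and the *Sult2a* genes share up to 94.9% of their coding sequence, so counts among them are uncertain. Of the 20 sulfotransferase genes listed, 6 were tested, of which 4 were lower (*Sult1d1*, *Sult1b1*, *Sult5a1* and *Sult2a8*) and none was higher, beside the 23.0% of all genes called lower. Without replicate 5 *Sult1a1* was the fifth. Under library-size scaling 3 were lower and 1 was higher, *Sult1c2* being called and *Sult1d1* not. Of 6 *Fmo* genes, 4 were tested, 1 was higher and 1 was lower.

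**Figure D2:**
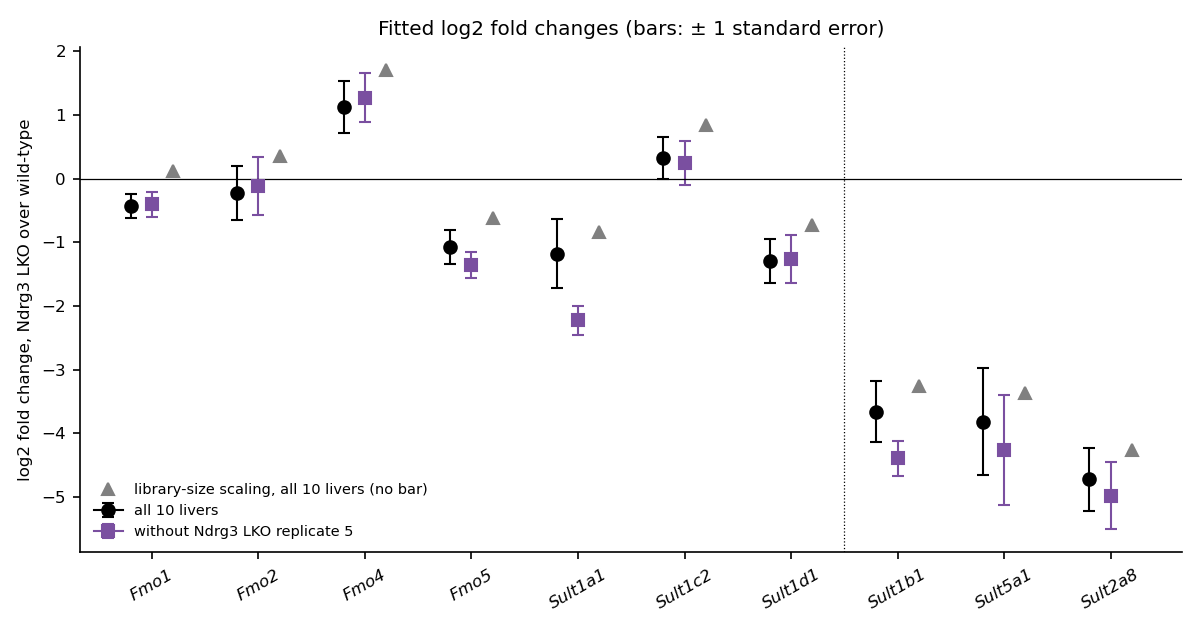
Log2 fold change, Ndrg3 LKO over WT, of the 7 tested genes (left of the dotted line) and 3 further sulfotransferase genes (right), for all 10 livers (circles), without Ndrg3 LKO replicate 5 (squares) and under library-size scaling (triangles); bars are ± 1 standard error. Leaving out replicate 5 moved *Sult1a1* from −1.18 to −2.23, and library-size scaling raised every point, as it raised the median of all genes to 0.56.

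To compare genes with each other, levels were divided by the length of their annotated exons. The summed level of these *Fmo* genes was 467 ± 119 CPM per kb in WT (SD, n = 5) and 211 ± 29.2 CPM per kb in Ndrg3 LKO replicates 1 to 4 (n = 4), with replicate 5 at 364 CPM per kb. *Fmo5* made up 86.3 ± 1.39% of this sum in WT livers, 70.6 to 80.3% in Ndrg3 LKO replicates 1 to 4 and 88.4% in replicate 5. *Fmo1* made up most of the rest, 10.7 to 14.5% in WT and 18.2 to 24.03% in Ndrg3 LKO replicates 1 to 4. Taken over the longest transcript instead of all exons, the share of *Fmo5* was 79.1% in WT and 59.6 to 71.0% in Ndrg3 LKO replicates 1 to 4. The order of levels per kb within every WT liver was *Fmo5*, *Fmo1*, *Fmo2* and *Fmo4*, whereas either of *Fmo2* and *Fmo4* could be the higher in an Ndrg3 LKO liver. The ranges of *Fmo2* and *Fmo4* overlapped in both groups. They were 1.79 to 6.02 and 0.838 to 2.62 CPM per kb in WT livers, and 1.47 to 6.66 and 1.61 to 6.54 CPM per kb in Ndrg3 LKO livers.

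The summed level of the sulfotransferase genes was 859 to 1278 CPM per kb in WT livers, 150.2 to 220.1 CPM per kb in Ndrg3 LKO replicates 1 to 4 and 677 CPM per kb in replicate 5. In WT livers *Sult1a1* (346 to 549 CPM per kb) and *Sult2a8* (335 to 397 CPM per kb) had overlapping ranges and led the order, followed by *Sult1d1* (94.4 to 332 CPM per kb) and, far lower, *Sult1b1*, *Sult5a1*, and *Sult1c2*, *Sult2a7* and *Sult1e1*, whose ranges overlapped. The share of *Sult2a8* was 30.1 to 45.9% in WT livers and 1.68 to 17.3% in Ndrg3 LKO livers. *Sult1d1*, although it fell, took a larger share in Ndrg3 LKO replicates 1 to 4 (28.7 to 53.0%) than in WT livers (10.9 to 25.9%), and 9.11% in replicate 5, where *Sult1a1* alone made up 86.2%.

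**Figure D3:**
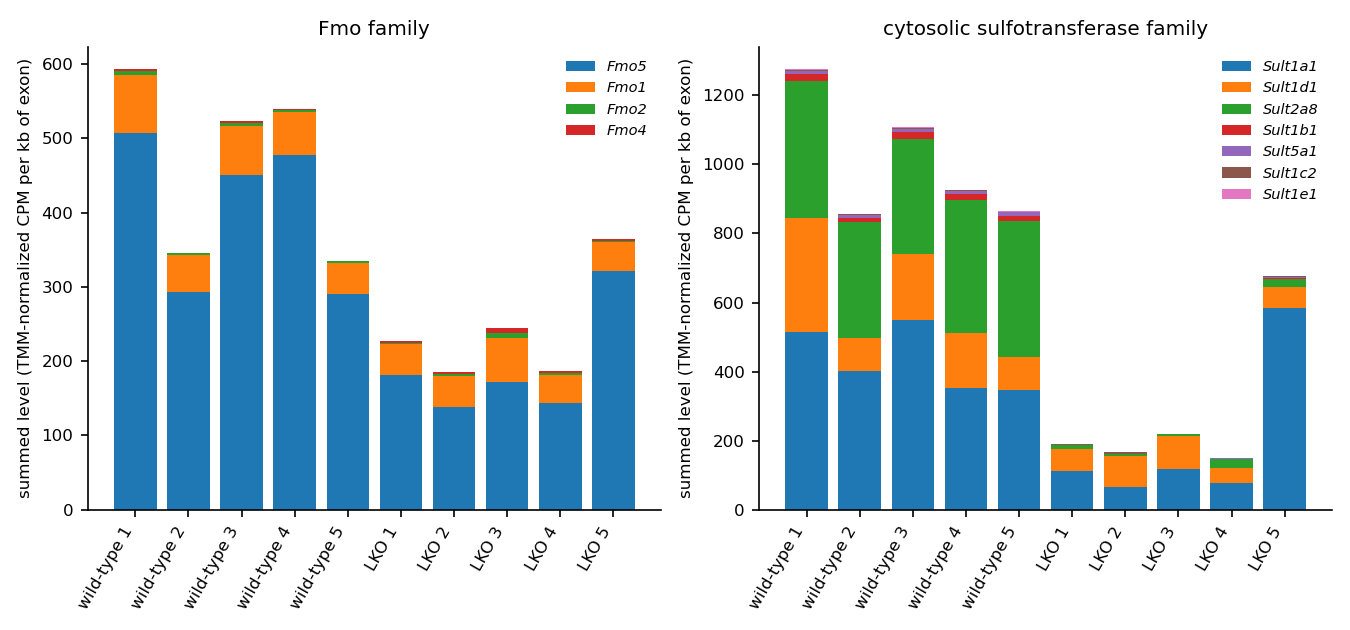
Summed level of *Fmo* genes (left) and sulfotransferase genes (right) in each liver, in TMM-normalized CPM per kb of exon, stacked by gene. *Fmo5* was the largest *Fmo* part in every liver, *Sult2a8* reached at most 26.0 CPM per kb in the Ndrg3 LKO livers, and *Sult1a1* was at 584 CPM per kb in replicate 5.

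Single livers also differed across genes within a group. WT replicate 1 had the highest level of its group for *Fmo1*, *Fmo2*, *Fmo4*, *Fmo5*, *Sult1d1* and *Sult1e1*. Ndrg3 LKO replicate 3 had the highest of its group for *Fmo1*, *Fmo2*, *Fmo4* and *Sult1d1*, while replicate 5 was highest for *Fmo5*, *Sult1a1*, *Sult1e1* and *Sult1b1*. The tested genes whose log2(CPM + 1) followed each gene most closely over the 10 livers are given as a description, since these livers form 2 groups. For *Fmo5* they were *Ogfrl1* (Pearson r = 0.979, and 0.937 for deviations from the group means) and *Fam107a* (0.974 and 0.922). For *Sult1a1* they were *Asl*, a urea cycle enzyme (0.993 and 0.989), and *Sqrdl*, a sulfide-oxidising enzyme (0.990 and 0.982). For *Fmo1* they were *Sult1d1* (0.921 and 0.880) and *Pltp* (0.913 and 0.877), for *Sult1d1* *Mospd2* (0.959 and 0.932) and *Pcf11* (0.957 and 0.913), and for *Fmo4* *Tia1* (0.959 and 0.937) and *Itsn1* (0.949 and 0.918). For *Fmo2* they were *Dlg3* (0.864 and 0.859) and *Vcpip1* (0.850 and 0.847). The closest to *Sult1c2* were *Usp31* (0.875 and 0.929) and *Rragc* (0.839 and 0.842), and the closest to *Sult1e1* were *Cdo1* (0.957 and 0.898) and *Gata6* (0.957 and 0.891).

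**Figure D4:**
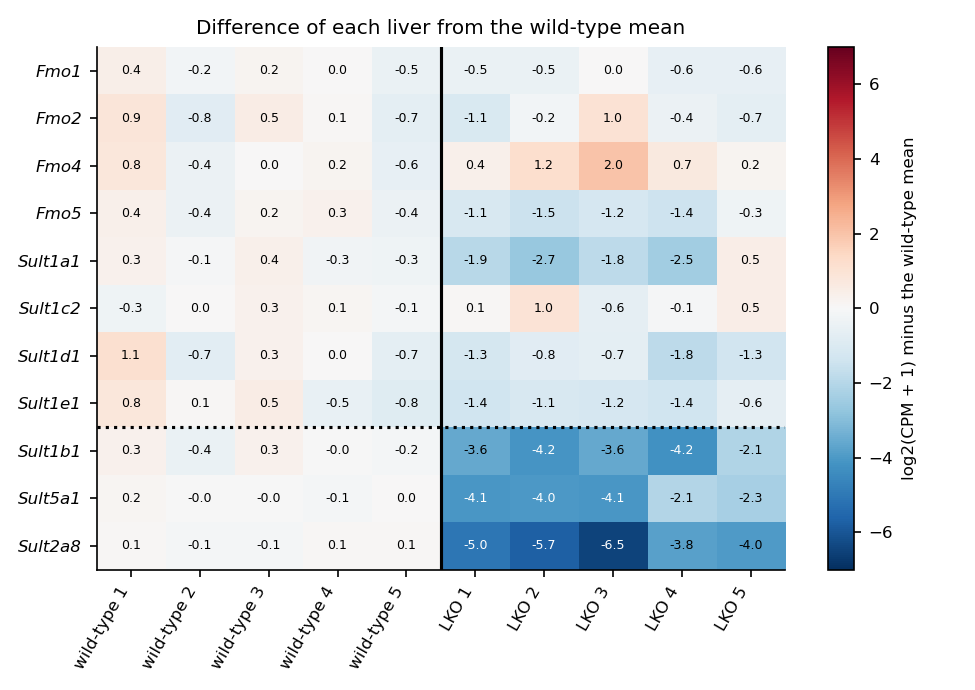
Difference of log2(CPM + 1) from the WT mean for each liver (columns) and gene (rows; above the dotted line 8 of the 9 genes, *Sult3a1* left out, below it 3 further sulfotransferase genes); blue is lower and red is higher. Ndrg3 LKO replicate 5 was close to WT for *Fmo5* and *Sult1a1* but not for *Sult1d1* or *Sult2a8*.

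Sulfotransferases need PAPS, and the genes that make, move or clear it were examined as a list. Of 7 tested genes, 3 were lower and none was higher, a share near the 48.5% of all genes called, with a median log2 fold change of −0.43. Under library-size scaling 1 was lower and 2 were higher. The 3 genes lower under TMM scaling were *Slc26a1*, a sulfate transporter of the hepatocyte membrane (100.3 ± 30.5 CPM in WT, SD, n = 5, log2 fold change −1.22 ± 0.24, adjusted p = 0.00157), *Bpnt1*, which breaks down the used donor PAP (−0.61 ± 0.12, adjusted p = 0.00191), and *Slc35b3*, a PAPS carrier of the Golgi (−0.39 ± 0.14, adjusted p = 0.0318). *Papss2*, the main PAPS synthase of liver, was at 192 ± 44.5 CPM in WT and 141 ± 40.6 CPM in Ndrg3 LKO livers (SD, n = 5 each, log2 fold change −0.45 ± 0.21, adjusted p = 0.102). Without replicate 5 the list counted 5 called genes, 4 lower and 1 higher, *Papss2* among the lower (−0.63, adjusted p = 0.0129). Among 8 tested genes that form sulfate from cysteine, 5 were lower, with sulfite oxidase *Suox* (−1.14 ± 0.21, adjusted p = 0.00102), *Mpst* (−1.04 ± 0.23, adjusted p = 0.00344), *Sqrdl* (−1.02 ± 0.35, adjusted p = 0.0282) and the cysteine dioxygenase *Cdo1* (−0.93 ± 0.27, adjusted p = 0.0131) showing the largest changes, and 1 was higher (*Ethe1*, 0.61 ± 0.19, adjusted p = 0.0218). The median was −0.87, and of all tested genes 23.0% were called lower and 25.6% higher. Without replicate 5 the counts were again 5 and 1, with a median of −1.11 and *Sqrdl* at −1.61. Under library-size scaling 3 were lower and 3 were higher.

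Monooxygenases draw on NADPH, and the genes that supply it are given beside the 48.5% of all tested genes that were called. All 5 genes of the NADPH list were called, in both directions: *G6pdx* (1.10 ± 0.39, adjusted p = 0.0327), *Me1* (0.96 ± 0.19, adjusted p = 0.00175) and *Pgd*, of the pentose phosphate pathway like *G6pdx* (0.69 ± 0.20, adjusted p = 0.0133), were higher, and *Idh1* (−1.17 ± 0.33, adjusted p = 0.0121) and *H6pd*, which makes NADPH inside the endoplasmic reticulum (−1.10 ± 0.23, adjusted p = 0.00224), were lower. All 5 were also called without replicate 5, where *Idh1* was at −1.64, and 4 or 5 were called when any other liver was left out. Under library-size scaling, limma and the stricter filter 4 were called.

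Of 21 tested regulators of hepatic drug-metabolising genes, 5 were lower and 2 were higher, so that fewer were called than the 48.5% of all genes, with a median log2 fold change of −0.04. The counts were the same without replicate 5. Under library-size scaling 4 were lower and 8 were higher. *Nfe2l2*, the oxidative stress regulator, rose by 2.21 (SE 0.28, adjusted p = 1.04e-04). *Cebpa* fell by 1.76 (SE 0.28, adjusted p = 4.50e-04), *Nr1i3*, the receptor CAR, fell by 1.73 (SE 0.38, adjusted p = 0.00305) and *Hnf4a* fell by 1.58 (SE 0.20, adjusted p = 1.22e-04), and by 1.82 without replicate 5. In Ndrg3 LKO replicate 5 *Hnf4a* was at 362 CPM, between the WT livers (590.3 to 794 CPM) and the other Ndrg3 LKO livers (181 to 227 CPM).

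Genes known to differ between male and female mouse liver moved as well. They are given beside the 25.6% of all tested genes called higher and the 23.0% called lower. Of 15 tested male-biased genes, 12 were lower and none was higher (median log2 fold change −2.65), led by *Selenbp2* (−8.30 ± 0.97), *Ugt2b38* (−5.68 ± 0.75), *Elovl3* (−5.08 ± 0.81) and *Mup20* (−4.10 ± 0.49). Of 10 tested female-biased genes, 5 were higher and 2 were lower (median 1.23), led by *Cyp2b9* (8.68 ± 1.02), *Cyp2a4* (8.36 ± 1.40), *Ntrk2* (5.97 ± 0.75) and *Prom1* (4.42 ± 0.51). In WT livers *Cyp2b9* averaged 0.139 CPM, near the limit of 3 counts, *Ntrk2* 0.334 CPM and *Prom1* 0.647 CPM. The sizes of their fitted changes rest on few counts. These genes passed the filter only through Ndrg3 LKO livers, so a call of lower was hardly open to them. The count of higher female-biased genes was thus partly fixed by the filter. *Cyp2a4* reached 1700 CPM in replicate 5, and its log2 fold change was 5.71 without it. Without replicate 5, 12 of 15 male-biased genes were lower, and of 11 female-biased genes then tested 6 were higher and 2 were lower. The gene added there, *Cyp3a44* (mean 0.184 CPM in WT), also passed the filter only through Ndrg3 LKO livers. The female-predominant *Sult2a1* and *Sult3a1* did not exceed 5 and 0 counts in any Ndrg3 LKO liver. Counts of *Sult2a1* are uncertain, since the *Sult2a* genes share up to 94.9% of their coding sequence.

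Markers of liver cell types differed between the groups too, and in bulk tissue fewer cells of a type and less RNA per cell cannot be told apart. Of all tested genes, 25.6% were called higher and 23.0% lower. *Tf*, also chosen as a hepatocyte marker, was not found among the gene symbols. The other 11 hepatocyte markers were all detected. Of these 8 were lower in Ndrg3 LKO livers and none was higher, with a summed level of 156051 to 196333 CPM in WT, 44004 to 52005 CPM in Ndrg3 LKO replicates 1 to 4 and 171211 CPM in replicate 5. *Alb* made up 108020 CPM of the sum in replicate 5, whereas *Apoa1* (14016 CPM), *Fga* (1405 CPM) and *Fgb* (2526 CPM) were there below every WT liver. The count of lower markers was 5 without Ndrg3 LKO replicate 4 and 9 without replicate 5. Under library-size scaling 8 were lower and 2 were higher. All 10 macrophage markers were higher (summed level 90.6 to 227 CPM in WT, 203 to 641 CPM in Ndrg3 LKO replicates 1 to 4, 266 CPM in replicate 5). So were 9 of 10 endothelial markers (81.3 to 101 CPM, 170 to 204 CPM and 168 CPM), 7 of 10 stellate cell and fibroblast markers (120 to 187 CPM, 258 to 341 CPM and 268 CPM) and all 6 tested proliferation genes (4.95 to 8.76 CPM, 13.7 to 93.5 CPM and 116 CPM). Of the proliferation genes, *Top2a*, *Ccnb1* and *Ccnb2* reached at most 0.552, 0.368 and 0.656 CPM in WT. They passed the filter only through Ndrg3 LKO livers, and *Mki67* (mean 0.820 CPM in WT) mostly so. A call of lower was thus hardly open to them, and the count of proliferation genes was partly fixed by the filter. Among 6 tested biliary markers 1 was higher and 1 was lower (51.1 to 84.3 CPM, 60.1 to 234 CPM and 58.8 CPM), the higher one being lost without Ndrg3 LKO replicate 1 (3 were higher and none was lower under library-size scaling). Of the 9 lymphocyte and neutrophil markers found among the gene symbols (*Ly6g* was chosen but not found), only *Ptprc* was tested. It was higher (1.97 to 3.13 CPM in WT, 3.18 to 9.16 CPM in Ndrg3 LKO replicates 1 to 4 and 6.00 CPM in replicate 5). The summed level of these 9 markers was 3.43 to 5.86 CPM, 5.39 to 17.6 CPM and 23.9 CPM. Summed levels of all lists include genes that were not tested. Without replicate 5 a second biliary marker was higher, and the counts for the other lists from macrophages to proliferation were the same. No gene of these lists was at 0 in every liver. The part of these differences in the levels of *Fmo* and sulfotransferase genes was not tested.

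**Figure D5:**
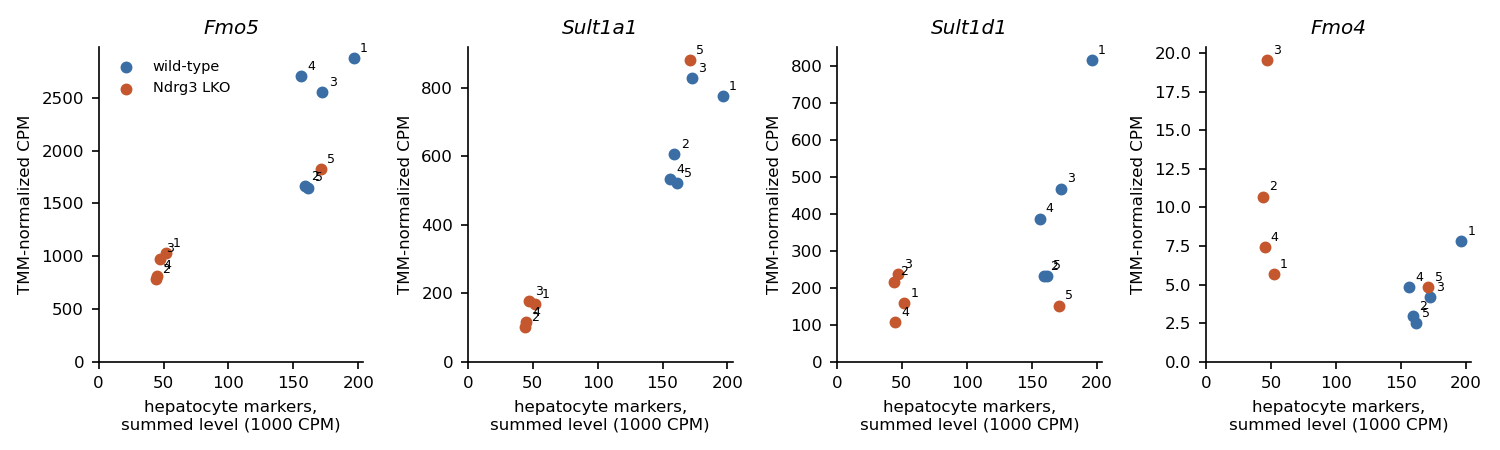
TMM-normalized CPM of 4 genes (vertical) against the summed level of 11 hepatocyte markers, in units of 1000 CPM (horizontal), 1 point per liver numbered by replicate. Ndrg3 LKO replicate 5 lay with the WT livers on the horizontal axis, where *Alb* made up 108020 of its 171211 CPM, and *Fmo5* (1824 CPM) and *Sult1a1* (880 CPM) were within and above the WT range, while *Sult1d1* was at 152 CPM, below every WT liver.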

How the data were processed

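RNA of 10 mouse livers was sequenced with a stranded mRNA kit as 100 bp paired-end reads (RNA integrity number above 8). The authors aligned reads to the mm9 genome with STAR, whose count module gave the counts, and the submitters' processing notes list STAR 2.7.3a, Trim Galore 0.6.4, bcl2fastq and Cufflinks 2.2.1. The published methods name an earlier version of STAR, so the version behind the counts is uncertain. The deposited values are counts: they are whole numbers with different totals, although the files are labelled as CPM. The annotation and the strand setting of the counting are not given in the sources used here, so genes that overlap on opposite strands are uncertain.

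Groups were taken from the sample labels. Genes that reached 1 CPM in 5 or more livers (4 where a liver was left out) were tested with edgeR 4.0.16 (robust quasi-likelihood, TMM, R 4.3.3), 2-sided with Benjamini-Hochberg adjustment over all genes tested and a threshold of 0.05. Standard errors were derived from the log2 fold change and its F statistic. Exact permutation tests used differences of mean log2(CPM + 1). The script was tested on simulated data in which only a small part of the genes changed, so that test does not bear on the scaling between these groups. Labels do not say whether livers with the same number share a litter or day, and same-numbered livers did not deviate together (correlations of −0.357, −0.272, −0.313, −0.176 and 0.0363), so livers were not paired. Alternatives were DESeq2 1.42.0, limma 3.58.1 on log2(CPM + 1), 3 other scalings, 2 other filters, a replicate block and each liver left out in turn. Limits of 3 counts cover counting error only; the reads carry no molecular identifiers and may be copies of one molecule.

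Positions and exon lengths come from GENCODE M1 (mm9), in which 25 of 26 family genes were found, and promoters from RefSeq (GRCm38.p6). Named genes are the 9 genes, every other listed gene of their families except 1 that is not reported here and enters no family sum, *Ndrg3*, from each pathway list at most 4 called genes with the largest changes, and the 2 genes most like each gene; *Papss2* and *Pgd* were named after their values were seen. Genes and lists were chosen with earlier results of these data known.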

Additional observations from a re-analysis of the deposited data

Results flagged for a closer look

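In 5 of 22 groups of 5 livers the highest liver lay far from the rest, its gap to the next liver taking more than 0.71 of the whole range of its group (Dixon's criterion), where chance flags about 1 group in 20. All 5 were Ndrg3 LKO groups. Replicate 5 was such a liver for *Fmo5* (1824 CPM, the next at 1032 CPM), *Sult1a1* (880 CPM, the next at 177 CPM) and *Sult1b1* (9.77 CPM, the next at 2.86 CPM). Replicate 3 was one for *Fmo1* (252.01 CPM, the next at 178 CPM) and *Fmo2* (36.9 CPM, the next at 15.6 CPM). The genes of one liver share its library, so these flags are not independent of each other.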

How the results depend on the processing

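Low counts limit what can be said of *Sult1e1* and *Sult3a1*, the scaling bears on *Fmo1*, *Fmo2*, *Sult1c2* and *Sult1d1*, and single livers bear on *Fmo1*, *Fmo2*, *Fmo4* and *Sult1a1*. Of all genes tested 5441 were called, 52.6% of them higher in Ndrg3 LKO livers; under library-size scaling 6843 were called, 85.3% of them higher, and the median log2 fold change moved from 0.03 to 0.56. The log2 fold change then reversed for *Fmo1* (0.11) and *Fmo2* (0.35), neither of which passed the threshold, and relative to that median they were −0.45 and −0.21. Leaving out each liver in turn gave −0.73 to 0.022 for *Fmo2*, reversed without WT replicate 1. With each liver left out, 2 to 4 of the 9 genes and 4704 to 6361 of all genes were called. *Fmo5* kept its call under all 18 alternatives (adjusted p of 1.68e-04 to 0.0219), *Sult1d1* under 17, *Fmo4* under 10 and *Fmo1* was called under 2. *Sult1a1* was called under 3, namely limma (−1.69, adjusted p = 0.0117), the replicate block and without Ndrg3 LKO replicate 5. With no filter on low counts 3 of the 9 genes were called, all lower, *Sult1e1* among them, and *Fmo4* was not (adjusted p = 0.0611). The causes of these changes were not tested.

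Livers of both groups carry the numbers 1 to 5. A replicate block on that number called 4407 genes, and 3 of the 9 genes: *Fmo5* (−1.12), *Sult1d1* (−1.18) and *Sult1a1* (−1.79, adjusted p = 0.0191), while *Fmo4* was at 1.04 (adjusted p = 0.0580). It called 3 of the 5 NADPH genes, 1 higher and 2 lower. No liver correlated best with the liver of its own number, so this block describes a shared number only.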
